A study of Mus musculus with 20 samples.

Results

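The genes described here are 36 genes of the lysosome, the acidic compartment in which cells break down what they take up: 13 subunits and accessory proteins of its proton pump, 7 membrane proteins, 11 hydrolases, 4 activators and other proteins of its lumen, and the transcription factor gene Tfeb. They were taken as a named list without the cathepsins, and all 36 had transcripts in both of the authors' joint tables of annotated cells, out of 17782 genes with transcripts in both. CD45+ cells, a marker of blood-derived and other haematopoietic cells, had been sorted from eyes of C57BL/6 mice aged 8 weeks, and 20 single-cell libraries of 192 wells were made by CEL-Seq2, which counts molecules at the 3′ end of transcripts. The groups, of 4 libraries each, were retina 3 days after laser lesioning, retina 7 days after laser lesioning, cornea, ciliary body, and unlesioned control retina. Cornea and ciliary body came from eyes without a stated lesion. The series' text speaks of about 6 mice and 3 independent experiments without tying a mouse to a library. The libraries of a group come as 2 pairs that share a prefix (P1 to P5), and the pair was used as the replicate. Nothing says that pairs were separate animals, so p-values measure the spread between pairs, which may be technical.

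The interior of the lysosome is kept acidic by the vacuolar ATPase (V-ATPase), whose cytosolic V1 sector splits ATP and whose membrane V0 sector lets protons through. Acidic hydrolases then cut sugars, lipids and proteins, helped by small activator proteins, while heavily glycosylated membrane proteins such as LAMP1 and LAMP2 line the limiting membrane. Microglia, the resident macrophages of the retina, and tissue macrophages depend on this compartment to digest debris after phagocytosis, and the transcription factor TFEB raises many of its genes by binding the CLEAR element, which holds the letters CACGTG.

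Promoters of the members are shown because several carry these letters, and because members with and without them were called in the comparisons that follow. RefSeq promoters of GRCm38.p6, from 250 bases before to 50 bases after the start of the gene, were matched for 30 of the 36 members. CACGTG occurred in 8 of the 30 members (26.7%), Atp6v0b, Atp6v0d1, Atp6v0e, Atp6v1a, Gaa, Glb1, Lamp1 and Mcoln1, and in 8.09% of all 27025 genes with a promoter in the table. The longer TCACGTGA, which contains it, occurred in Atp6v0d1, Atp6v0e, Atp6v1a and Mcoln1 (13.3% of the members) and in 1.12% of all genes. Both motifs read the same on both strands. The pieces around the matches are given 5′ to 3′ on the strand of the gene, with the matches in capitals: Lamp1 at chr8:13159081-13159160 (plus strand), Mcoln1 at chr8:3500439-3500518 (plus strand), Atp6v1a at chr16:44139345-44139424 (minus strand), Atp6v0e at chr17:26676346-26676405 (plus strand) and Atp6v0d1 at chr8:105566055-105566124 (minus strand).
Lamp1: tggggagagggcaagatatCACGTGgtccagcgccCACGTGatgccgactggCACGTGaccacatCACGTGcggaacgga
Mcoln1: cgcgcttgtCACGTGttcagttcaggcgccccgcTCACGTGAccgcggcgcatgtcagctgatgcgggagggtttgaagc
Atp6v1a: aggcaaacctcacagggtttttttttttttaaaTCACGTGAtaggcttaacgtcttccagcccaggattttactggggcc
Atp6v0e: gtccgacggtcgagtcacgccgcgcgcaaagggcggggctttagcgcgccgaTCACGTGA
Atp6v0d1: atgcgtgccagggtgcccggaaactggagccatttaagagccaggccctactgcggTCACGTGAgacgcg
Lamp1 held CACGTG at 4 places, the nearest 15 bases before its start, and Mcoln1 held it at 2. In Atp6v1a the match began 131 bases before the start. Of the 14 members with a matched promoter that were called in any test below, 3 held CACGTG, namely Atp6v1a, Atp6v0e and Lamp1. A match describes letters in this window and was not tested as a binding site.

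The authors annotated 511 wells in the retina table and 429 in the table of cornea, ciliary body and control retina (the eye table), and 111 wells stood in both. The 20 libraries held 371329 to 3325825 transcripts each, and the pairs analysed here 45538 to 464282 transcripts of the genes of the joint tables. Genes outside those tables took 51.8 to 56.9% of the transcripts of control microglia, 30.0 to 32.4% at day 3 and 44.3 to 47.4% at day 7. Against the fixed marker lists, the summed level of 8 microglia genes was 11679 to 21253 in microglia and at most 2574 in every other class. Macrophage markers summed to 1674 to 1980 in the cornea and 772 to 1407 in the ciliary body macrophages, with Lyve1 at 0 in cornea. Keratin markers of corneal epithelium summed to 13397 to 17038 in cornea macrophages, against at most 1460 in the other classes of both tables. Levels are counts of transcripts per gene in CPM of the joint tables' genes, scaled by TMM (scaled CPM), with 1 set of factors per table. They are not divided by length because 1 tag marks 1 molecule, and fewer cells of a kind and less RNA per cell cannot be told apart in a class sum.

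As a share of all transcripts of the joint tables' genes, the 36 members were highest in microglia. They took 1.28 to 1.48% of the transcripts in the 2 pairs of control microglia, 1.57 to 1.80% at day 3 and 1.74 to 1.85% at day 7. The day 3 and day 7 pairs lay above both control pairs. Dendritic cells held 0.846 to 1.01% at day 7 and 0.979 to 1.01% at day 3, and the authors' joint class of monocytes, lymphocytes and granulocytes held 0.585 to 0.824% at day 7 and 1.04 to 1.05% at day 3. In the eye table, the share was 0.873 to 0.938% in cornea macrophages, 0.979 to 1.06% in ciliary body macrophages and 1.31 to 1.52% in microglia of control retina. The order depends on the genes left out: over all library genes, the mean share in microglia was 0.628% without laser, 1.16% at day 3 and 0.971% at day 7, and it was 0.631% in cornea macrophages and 0.679% in ciliary body macrophages against 0.602% in retinal microglia. Over single wells of microglia the median share was 1.32% in control retina (quartiles 1.003 and 1.56%), 1.73% at day 3 (1.26 and 2.19%) and 1.78% at day 7 (1.40 and 2.13%). The median control well held 1892 (P1) and 1531 (P2) transcripts of the joint table's genes, so the share of 1 well rests on few transcripts. This spread therefore includes counting noise, and its part was not tested. These shares are a description, without a test.

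**Figure D1:**
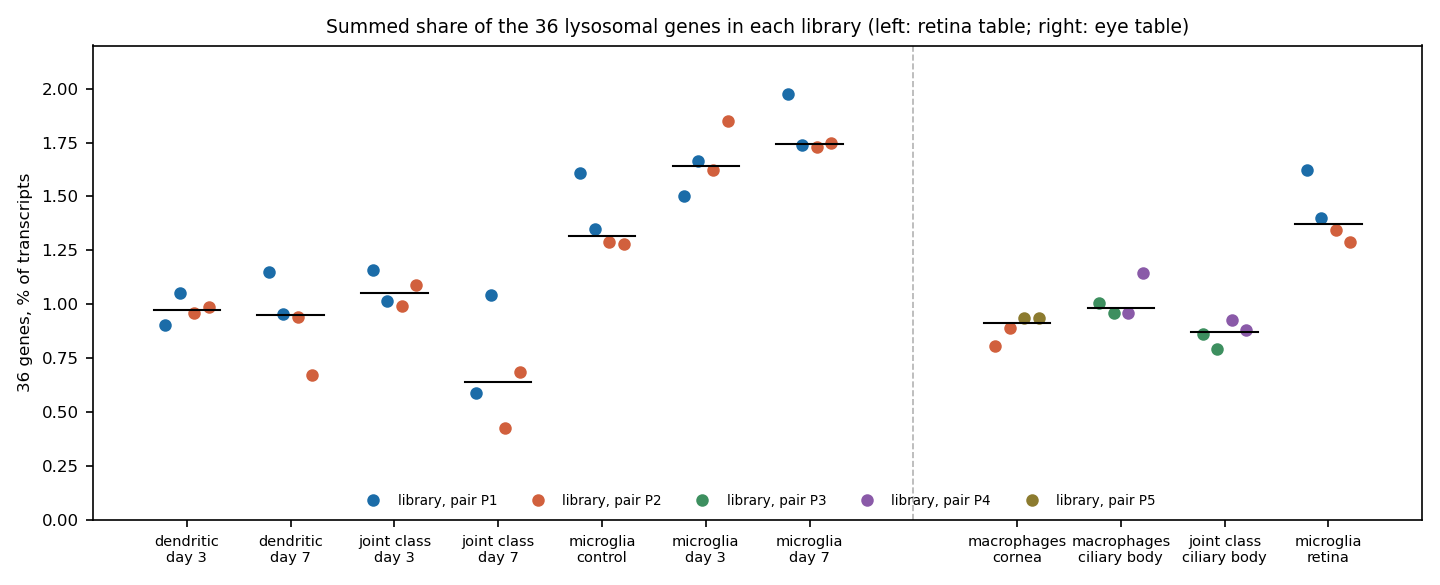
Summed share of the 36 lysosomal genes, in percent of the transcripts of the joint tables' genes (vertical axis), in each library (points, coloured by pair) of each class and group, with the median of the libraries as a line. Microglia lie between 1.28 and 1.98%, and the other classes at or below 1.16%.

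A few members made up most of the signal. In microglia of control retina the highest were Laptm5, Grn, Psap, Lamp1, Man2b1 and Cd68, which together held 61.5% of the members' level. Laptm5, a membrane protein of lysosomes in blood-derived cells, had 2446 and 2410 scaled CPM in the control pairs, 2202 and 2939 at day 3 and 2728 and 2774 at day 7, and its pairs overlapped between control and day 3. Grn, the precursor of progranulin and the granulins, and Psap, the precursor of the saposins that help hydrolases reach lipids, followed. At day 3 and at day 7 Grn stood first. The 6 highest members held 51.3% of the members' level in cornea macrophages and 65.2% in microglia at day 7, the lowest and highest of the classes.

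The comparison of retinal microglia at day 3 after laser with those of control retina asks which of these genes differed soon after the lesion. Grn, Gusb, Cd68 and Psap rose at day 3, and no member fell. These 4 were among 28 members tested, and of all 3408 genes tested 22.5% were called at an adjusted p under 0.05, 11.9% higher and 10.5% lower. The median log2 fold change of the members tested was 0.29, against 0.03 for all genes tested. Grn had 2782 and 3071 scaled CPM at day 3 against 1674 and 1512 in control retina, with no overlap (log2 fold change 0.85 ± 0.18 SE, edgeR adjusted p = 0.00169). Gusb, which encodes β-glucuronidase, had 897 and 799 scaled CPM at day 3 against 568 and 278 in control retina (log2 fold change 1.06 ± 0.28 SE, edgeR adjusted p = 0.00787). Both day 3 pairs lay above both control pairs, and the control pairs differed more from each other than the day 3 pairs did. Cd68, the macrophage membrane glycoprotein macrosialin, had 1078 and 968 scaled CPM at day 3 against 626 and 562 in control retina (log2 fold change 0.76 ± 0.22 SE, edgeR adjusted p = 0.0151). Psap had 2075 and 2610 scaled CPM at day 3 against 1776 and 1189 in control retina (log2 fold change 0.66 ± 0.21 SE, edgeR adjusted p = 0.0270). The call of Grn held with each pair left out. Gusb was lost without control pair P2 (edgeR adjusted p = 0.195), Cd68 without day 3 pair P1 (0.0645) or control pair P2 (0.0811), and Psap without day 3 pair P2 (0.151) or control pair P2 (0.207). With DESeq2 in place of edgeR only Grn was called, and Psap was also lost with all library genes in the sums (edgeR adjusted p = 0.0713) and with scaling by the total alone (0.0589).

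Markers and quality moved with this comparison. The 9 photoreceptor genes summed to 4120 to 7677 scaled CPM in control microglia, 1767 to 3113 at day 3 and 7546 to 9618 at day 7. The 4 Müller glia genes summed to 1034 to 1176 in control microglia, 335 to 680 at day 3 and 1112 to 1145 at day 7. The 8 microglia genes themselves summed to 18809 to 21253, 11679 to 13692 and 14210 to 14642 in the same order, and the 5 granulocyte genes to 553 to 646, 181.2 to 319.5 and 651 to 665. Of the granulocyte genes, S100a8 stood at 0 in control retina, and S100a9 and Mcpt4 at day 3. At day 7 S100a8, S100a9 and Mcpt4 stood at 0, so the sum there came from Cpa3 and Csf3r alone and does not show granulocytes. The 5 monocyte genes summed to 45.3 to 466 at day 3 against 43.7 to 51.7 in control retina, with Vcan at 0 at day 3. The median mitochondrial share per well was 6.91 to 9.57% in control retina, 12.7 to 13.3% at day 3 and 10.4 to 10.5% at day 7. Their part in the results was not tested.

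At day 7 against control retina, Grn was the member that rose, with 3022 and 3387 scaled CPM at day 7 against 1674 and 1512 in control retina (log2 fold change 1.01 ± 0.18 SE, edgeR adjusted p = 0.00537). It held with each pair left out and under every other setting tried. The 28 members tested thus gave 1 call, and of all genes tested 1.82% were called, 1.38% higher and 0.44% lower. The median log2 fold change was 0.27 for the members and 0.01 for all genes. Psap had 2509 and 2065 scaled CPM at day 7 against 1776 and 1189 in control retina, without overlap, and did not pass (log2 fold change 0.65 ± 0.21 SE, edgeR adjusted p = 0.105), while it passed without control pair P1 (0.00161), without either pair of day 3 (0.0395 for P1 and 0.0467 for P2) and with single libraries as replicates (0.0218). This comparison and that of day 3 share the control pairs.

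Between the later and the earlier time, Man2b1 rose and Gusb and Cd68 fell. Of all genes tested 9.45% were called, 4.49% higher at day 7 and 4.96% lower, and the median log2 fold change was 0.10 for the 28 members tested and 0.03 for all genes. Gusb had 413 and 394 scaled CPM at day 7 against 897 and 799 at day 3 (log2 fold change -1.03 ± 0.26 SE, edgeR adjusted p = 0.0158), and the call held with each pair left out. Cd68 had 582 and 560 scaled CPM at day 7 against 1078 and 968 at day 3 (log2 fold change -0.80 ± 0.21 SE, edgeR adjusted p = 0.0187). At day 7 the pairs of both genes lay within or close to the range of the control pairs. Man2b1, the lysosomal α-mannosidase that trims sugar chains, had 1571 and 1085 scaled CPM at day 7 against 489 and 904 at day 3, and 1048 and 924 in control retina (day 7 over day 3, log2 fold change 0.93 ± 0.26 SE, edgeR adjusted p = 0.0277). Its day 3 pairs differed more than those of the other called members. Cd68 was lost with any of the 4 laser pairs left out, at edgeR adjusted p of 0.0989 (day 3 P1), 0.0623 (day 3 P2), 0.101 (day 7 P1) and 0.127 (day 7 P2). Man2b1 was lost without day 3 pair P1 (0.270) or day 7 pair P1 (0.234), and DESeq2 called no member.

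**Figure D2:**
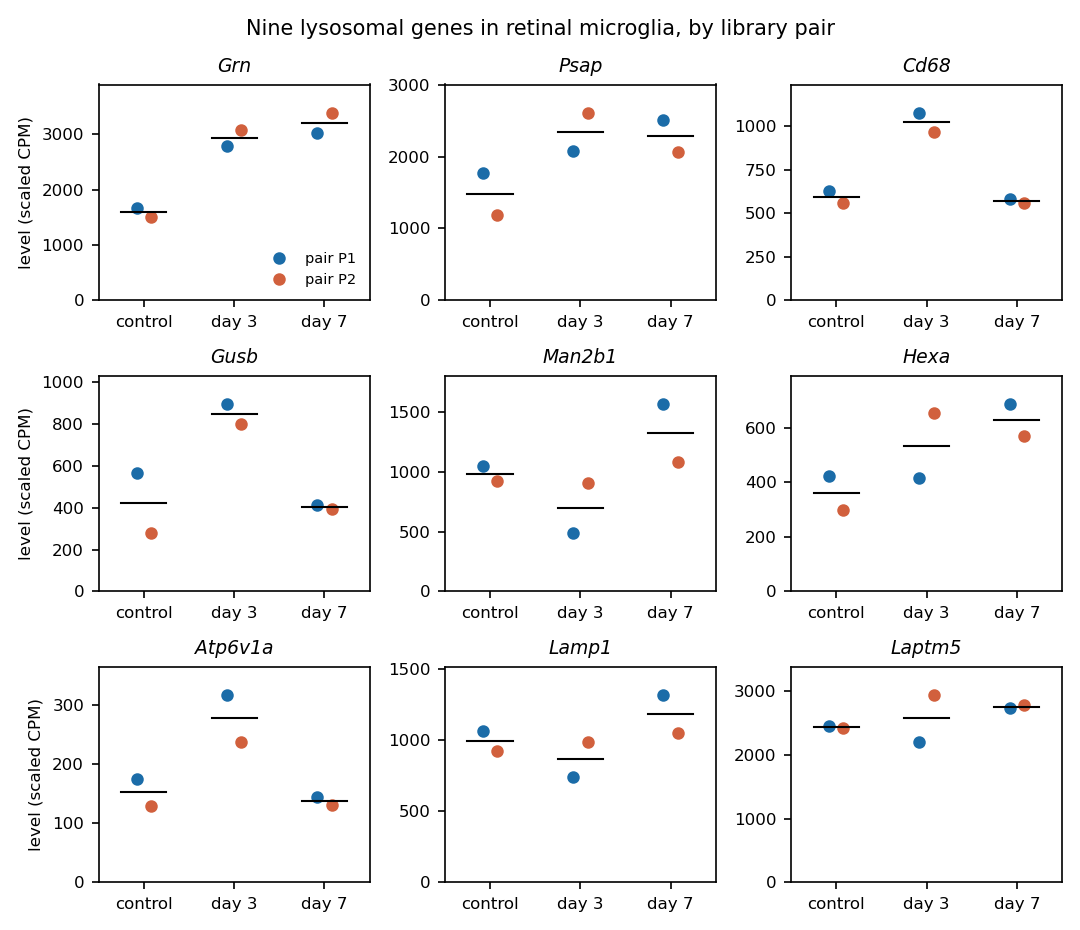
Levels in scaled CPM (vertical axes from 0) of 9 members in microglia of control retina and of retina at day 3 and day 7 after laser, with 1 point per library pair and the mean of the 2 pairs as a line. Grn lies between 2782 and 3387 in the laser pairs and at 1512 and 1674 in the control pairs, and Cd68, Gusb and Atp6v1a are highest at day 3.

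The proton pump gave no call in microglia. Of its 13 members, 10 were tested. Atp6v1a, the catalytic A subunit of the V1 sector, had 317 and 237 scaled CPM at day 3 against 175 and 129 in control retina, without overlap (log2 fold change 0.86 ± 0.34 SE, edgeR adjusted p = 0.0703), and 144 and 131 at day 7. Day 7 against day 3 gave a log2 fold change of -0.94 ± 0.33 for Atp6v1a (SE, edgeR adjusted p = 0.0714), which passed without control pair P2 (0.0475). The other V1 subunits tested, Atp6v1b2, Atp6v1e1, Atp6v1f and Atp6v1g1, ran from 56.3 to 280 scaled CPM over the 6 pairs. Atp6v0d1, a V0 subunit, had 102 and 77.5 in control retina, 109 and 160 at day 3 and 150 and 96.3 at day 7, and its day 7 pairs overlapped both those of day 3 and those of control retina. The accessory proteins Atp6ap1 and Atp6ap2 ran from 106 to 338 and overlapped between control and day 3.

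Lamp1 and Lamp2, the main proteins of the limiting membrane, were not called in any microglial comparison. Lamp1 had 1063 and 924 scaled CPM in control retina, 743 and 986 at day 3 and 1320 and 1050 at day 7. Lamp2 had 393 and 388 in control retina, 571 and 470 at day 3 and 507 and 621 at day 7, so that all 4 laser pairs lay above both control pairs. Hexa, the α subunit of β-hexosaminidase, had 422 and 297 in control retina, 417 and 653 at day 3 and 688 and 569 at day 7, with the day 7 pairs above the control pairs and the day 3 pairs overlapping them. Lipa, the lysosomal acid lipase, had 218 and 123 in control retina, 136 and 146 at day 3 and 175 and 175 at day 7. Its control pairs spanned all the others. No test passed for these genes. Among the other hydrolases tested, Asah1 ran from 208 to 323 over the 6 pairs, Tpp1, a tripeptidyl peptidase, from 220 to 464, Ppt1 from 277 to 362 and Gaa, the acid α-glucosidase, from 52.5 to 102. Creg1 ran from 189 to 350, Gm2a from 84.0 to 257, Scarb2 from 220 to 306 and the membrane protein gene Laptm4a from 262 to 401.

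A list of 71 other lysosome genes, of which 35 were tested in microglia, gives the rest of the pathway. At day 3 against control retina 1 of them rose, the tetraspanin gene Cd63, and 5 fell, against 11.9% higher and 10.5% lower of all genes tested. Cd63 averaged 1155 ± 58.3 scaled CPM at day 3 against 381 ± 99.8 in control retina (SD, n = 2 pairs each), a log2 fold change of 1.62 ± 0.24 (SE, edgeR adjusted p = 6.65e-05). It stayed higher at day 7, at 931 ± 157 against 381 ± 99.8 (SD, n = 2 pairs each, log2 fold change 1.33 ± 0.24 SE, edgeR adjusted p = 0.00537), where it was the only gene of the list to pass. Of all genes tested, 1.82% were called at day 7 against control retina. Both calls of Cd63 held under every setting tried. Acp2, a lysosomal acid phosphatase, averaged 116 scaled CPM at day 3 against 276 in control retina (log2 fold change -1.31 ± 0.33 SE, edgeR adjusted p = 0.00605). Flcn, the gene of folliculin, a regulator of nutrient signalling at the lysosome, averaged 22.8 at day 3 against 102 in control retina (log2 fold change -2.13 ± 0.56 SE, edgeR adjusted p = 0.00771). Its day 3 level rests on few transcripts. The call of Acp2 was lost without day 3 pair P2 (0.0791) or control pair P2 (0.150), and that of Flcn without control pair P2 (0.163). With DESeq2 both were lost (0.117 for Acp2 and 0.109 for Flcn). Pla2g15 and Cd164 also fell.

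At day 7 against day 3, 3 of the 35 genes tested of the same list rose and 0 fell, against 4.49% higher and 4.96% lower of all genes. Flcn averaged 157 scaled CPM at day 7 against 22.8 at day 3 (log2 fold change 2.69 ± 0.51 SE, edgeR adjusted p = 0.00154), and this call held with each pair left out. Acp2 averaged 247 at day 7 against 116 at day 3 (log2 fold change 1.11 ± 0.33 SE, edgeR adjusted p = 0.0318). Tfe3, a relative of Tfeb that folliculin is known to keep out of the nucleus, averaged 118 at day 7 against 38.7 at day 3 (log2 fold change 1.62 ± 0.50 SE, edgeR adjusted p = 0.0405). The day 3 levels of Flcn and Tfe3, 22.8 ± 6.55 and 38.7 ± 3.42 scaled CPM (SD, n = 2 pairs), rest on few transcripts. The 2 day 3 sums held 109506 and 218307 transcripts of all genes of the joint table. The calls of Acp2 and Tfe3 were lost with any of the 4 laser pairs left out, at edgeR adjusted p of 0.0893 to 0.183 for Acp2 and 0.0872 to 0.290 for Tfe3.

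The authors' clusters of microglia differed in the summed share of the 36 members, as a description, since the clusters were built from the same transcripts. It was 1.94% in cluster 11, with 21 of its 26 wells from day 7. In cluster 6 it was 1.82%, with 39 of its 47 wells from day 3. Cluster 14, with 15 of its 18 wells from day 7 and 0 from control retina, held 1.53%. Its 3 wells of day 3 held 1.69% and its wells of day 7 held 1.47%. Clusters 3, 4 and 5 held 1.76, 1.5 and 1.31%. Within cluster 3 the share was 1.5% in the 29 wells of control retina, 1.93% in the 12 wells of day 3 and 1.84% in the 41 wells of day 7. Within cluster 4 it was 1.33% in 56 control wells, 1.83% in 9 wells of day 3 and 1.77% in 16 wells of day 7. Within cluster 5 it was 1.17% in 32 control wells, 1.30% in 15 wells of day 3 and 1.57% in 13 wells of day 7. In each of these 3 clusters the control wells had the lowest share. Clusters 6 and 11 held only 1 and 2 control wells, whose share was 2.23% in cluster 6, against 1.81% at day 3 and 1.96% at day 7, and 1.75% in cluster 11, against 1.35% in 3 wells of day 3 and 2.04% at day 7.

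Set against microglia of the same day, dendritic cells and the joint class had lower levels of most members. The authors named the classes from the same transcripts, so the ratios of mean levels are given without a test, for genes with at least 20 transcripts. A gene is counted as apart when the 2 pairs of a class do not overlap the 2 pairs of microglia and the ratio is at least 2-fold. In dendritic cells at day 3, 1 member was higher in this way and 9 were lower of 34, against 14.2% higher and 11.9% lower of all genes. At day 7, 3 were higher and 11 lower of 29, against 15.7% and 19.6% of all genes. In the joint class, 1 was higher and 5 lower of 31 at day 3, against 10.4% and 15.2% of all genes. There 0 were higher and 16 lower of 30 at day 7, against 13.4% and 21.8% of all genes. The median log2 ratio of the members was -0.47 and -0.54 in dendritic cells at days 3 and 7, and -0.54 and -1.21 in the joint class, against 0.04, -0.08, -0.07 and -0.10 for all genes. With scaling by the total alone, dendritic cells at day 7 had 1 member higher and 13 lower, against 465 higher and 995 lower of all 4007 genes, whose median then was -0.31.

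Gm2a, which encodes the GM2 ganglioside activator, was the member furthest above microglia. It had 1416 and 1074 scaled CPM in dendritic cells at day 3 against 199 and 169 in microglia, a 6.76-fold ratio. At day 7 it had 897 and 1132 in dendritic cells against 257 and 228 in microglia, a 4.19-fold ratio. In the joint class it had 507 and 334 at day 3, above the microglial pairs, and 34.9 and 156 at day 7, below them and on few transcripts. Ppt1, a thioesterase that removes fatty acids from proteins, had 1118 and 386 in dendritic cells at day 7 against 350 and 333 in microglia. Its dendritic pairs lay far apart.

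Grn showed the opposite pattern. It had 763 and 1077 scaled CPM in dendritic cells at day 3 against 2782 and 3071 in microglia, and 590 and 772 at day 7 against 3022 and 3387. In the joint class it had 767 and 962 at day 3 and 593 and 398 at day 7. Cd68, Gusb and Hexa were also below microglia by at least 2-fold in both classes on both days, without overlap. In the joint class at day 3 the ratio of Cd68 was 0.485, and with scaling by the total alone it was not apart there. Cd68 had 330 and 402 in dendritic cells at day 3 against 1078 and 968 in microglia. Hexa had 70.8 and 101 in the joint class at day 3 against 417 and 653 in microglia, the ratio being 0.161. Lamp1 and Lamp2 were apart in dendritic cells on both days and in the joint class at day 7. Lamp1 had 330 and 355 in dendritic cells at day 3 against 743 and 986 in microglia, and Lamp2 had 192 and 220 against 571 and 470. Psap was closer in dendritic cells at day 7, at 2469 and 1364 against 2509 and 2065 in microglia, and its pairs overlapped. At day 3 it averaged 1244 in dendritic cells against 2343 in microglia, a ratio of 0.531, and was apart with scaling by the total alone. Its ratio in the joint class was 0.815 at day 3 and 0.504 at day 7. Laptm5 had 1430 and 1751 in dendritic cells at day 3 against 2202 and 2939 in microglia, a ratio of 0.619, and Lipa had 117 and 185 against 136 and 146. The V1 subunit Atp6v1a had 172 and 199 in dendritic cells at day 3 against 317 and 237 in microglia. Atp6v0d1 had 96.2 and 135 against 109 and 160. At day 7 the ratio of Atp6v1a was 1.32 in dendritic cells and 1.99 in the joint class, and neither was apart. The ratios of Atp6v1e1, Atp6v1f and Atp6v1g1 in dendritic cells at day 7 were 1.19, 1.38 and 1.34, and that of Atp6v1b2 was 0.701. There Atp6v0e was apart and higher (2.01), and Atp6v0b and Atp6ap1 were apart and lower (0.471 and 0.341). With scaling by the total alone Atp6v0e was not apart, and Atp6v1a was apart in the joint class.

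**Figure D3:**
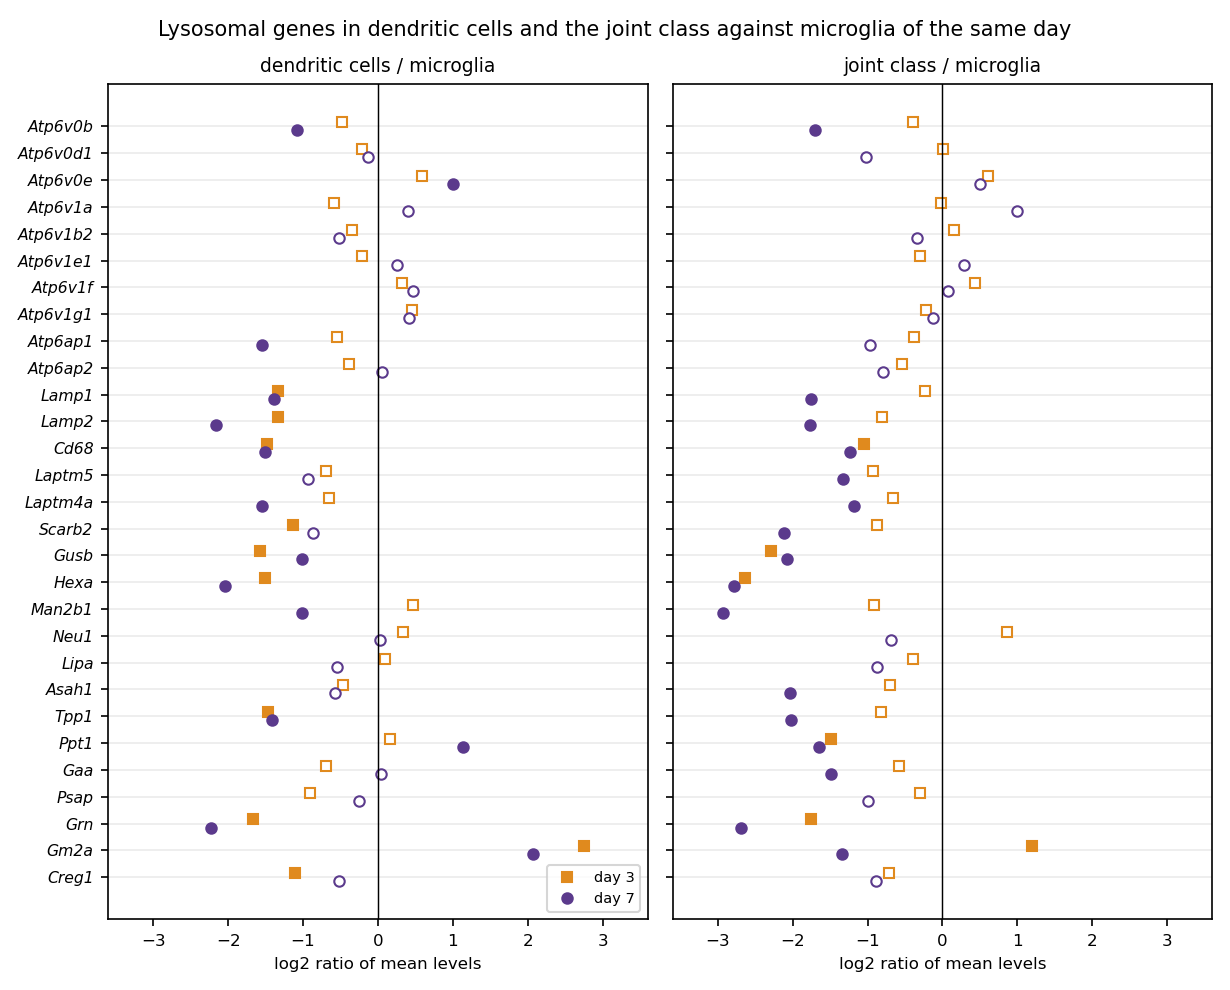
Log2 ratio of mean levels (horizontal axis) of dendritic cells (left) and of the joint class (right) over microglia of the same day for the 29 members with at least 20 transcripts in all 4 contrasts, with squares for day 3 and circles for day 7. Filled symbols mark genes whose pairs do not overlap and that differ by at least 2-fold. Gm2a lies furthest to the right in dendritic cells, and Grn, Hexa, Gusb and Cd68 lie to the left in all 4 contrasts.

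Within dendritic cells, day 7 was tested against day 3, since control retina held too few of these cells. Of 27 members tested 0 were called with edgeR, with 3 at an unadjusted p under 0.05, and of 2350 genes 0.17% were called, 0.0851% higher and 0.0851% lower. Psap had 2469 and 1364 scaled CPM at day 7 against 1430 and 1058 at day 3, with overlap (log2 fold change 0.67 ± 0.29 SE, edgeR adjusted p = 0.436). It passed without day 7 pair P2 (0.000226), a pair of 10 wells. Cd68 had 246 and 154 at day 7 against 330 and 402 at day 3 (log2 fold change -0.79 ± 0.34 SE, edgeR adjusted p = 0.435). Grn had 590 and 772 at day 7 against 763 and 1077 at day 3, and its pairs overlapped by a narrow margin. Photoreceptor markers summed to 4993 to 7419 at day 7 against 956 to 3308 at day 3 in this class, and their part was not tested.

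Within the joint class, day 7 against day 3 gave 0 calls of 24 members tested with edgeR, with 4 at an unadjusted p under 0.05, and of 1834 genes 0.164% were called, 0.0545% higher and 0.109% lower. Of the members tested, 19 had a negative log2 fold change, with a median of -0.57 against -0.01 for all genes. Psap had 1491 and 813 scaled CPM at day 7 against 2147 and 1671 at day 3, and Lamp1 had 549 and 156 against 885 and 587, in both cases without overlap. Gm2a had 34.9 and 156 at day 7 against 507 and 334 at day 3 (log2 fold change -2.30 ± 0.62 SE, edgeR adjusted p = 0.148), and it passed without day 3 pair P2 (0.00244), without day 7 pair P2 (0.000462), with no filter on low counts (0.00336), with single libraries (0.0204) and with the prefix as a block (0.000869). The day 7 sums of this class held 105936 and 52485 transcripts of all genes of the joint table, so the level of Gm2a there rests on few transcripts. Markers of T and NK cells summed to 1194 to 1315 at day 7 against 82.6 to 527 at day 3, and granulocyte markers to 17.3 to 52.3 at day 7 against 70.8 to 1711 at day 3. Photoreceptor markers summed to 5451 to 5762 at day 7 against 932 to 2653 at day 3, and Müller glia markers to 366 to 536 against 141.5 to 182.3. The cluster of this class with the lowest share of the members, at 0.424%, had 16 of its 20 wells from day 7. The other 4 clusters held 0.660 to 1.80%, the highest with 5 of its 9 wells from day 7 and the next, at 1.46%, with 2 of 8. The part of these shifts was not tested.

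Whether the change from day 3 to day 7 differed between dendritic cells and microglia was tested as an interaction. The sums of both classes come from the same libraries, and the fit treated them as independent. Of 28 members tested 0 were called with edgeR, with 4 at an unadjusted p under 0.05, and of 3694 genes 0.298% were called, 0.217% with a higher and 0.0812% with a lower difference. Man2b1 had the log2 difference -1.51 ± 0.40 (SE, edgeR adjusted p = 0.153). It had 725 and 592 scaled CPM at day 7 against 1107 and 812 at day 3 in dendritic cells, and 1571 and 1085 at day 7 against 489 and 904 at day 3 in microglia. It passed without dendritic cell pair P2 of day 3 (0.0210).

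The macrophages of cornea and ciliary body were each compared with microglia of control retina in the eye table, where tissue and class cannot be told apart. The ciliary body pairs (P3 and P4) shared no prefix with control retina (P1 and P2) or cornea (P2 and P5). In comparisons with the ciliary body, prefix and tissue thus cannot be told apart either. Cornea and control retina shared P2 alone. In cornea macrophages 7 members were lower and 2 were higher than in retinal microglia, of 31 tested. Of all 4705 genes tested 33.1% were called, 17.3% higher and 15.8% lower. The median log2 fold change was -0.17 for the members and 0.05 for all genes. With scaling by the total alone 10 members were lower and 0 higher, against 1000 lower and 589 higher of all genes. The lower members were 4 hydrolases, Man2b1, Hexa, Asah1 and Ppt1, 2 proteins of the lumen, Grn and Creg1, and the membrane protein Scarb2. Creg1, a secreted and lysosomal glycoprotein, had 97.4 and 58.1 scaled CPM in cornea macrophages against 206 and 247 in retinal microglia (log2 fold change -1.68 ± 0.37 SE, edgeR adjusted p = 0.00268). Grn had 660 and 607 against 1480 and 1415 (log2 fold change -1.31 ± 0.28 SE, edgeR adjusted p = 0.00227). Man2b1 had 368 and 459 against 940 and 801 (log2 fold change -1.18 ± 0.29 SE, edgeR adjusted p = 0.00634). For all 3 genes both cornea pairs lay below both microglial pairs.

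Asah1, acid ceramidase, had 151 and 121 scaled CPM in cornea macrophages against 219 and 289 in retinal microglia (log2 fold change -1.05 ± 0.35 SE, edgeR adjusted p = 0.0318). Ppt1 had 151 and 132 against 257 and 271 (log2 fold change -1.02 ± 0.35 SE, edgeR adjusted p = 0.0341). Scarb2, the membrane receptor LIMP-2 that carries glucocerebrosidase, had 141 and 116 against 257 and 223 (log2 fold change -1.001 ± 0.35 SE, edgeR adjusted p = 0.0389). Hexa had 178.5 and 190.1 against 360 and 289 (log2 fold change -0.91 ± 0.31 SE, edgeR adjusted p = 0.0327). None of these 4 overlapped between the groups. The calls of Scarb2 and Hexa were lost with any of the 6 pairs left out, at edgeR adjusted p of 0.0673 to 0.310 and of 0.0722 to 0.246. Asah1 was lost without cornea pair P2 (0.0837) or P5 (0.276), ciliary body pair P3 (0.0535) or control pair P2 (0.355). Ppt1 was lost without cornea pair P2 (0.114) or P5 (0.248), ciliary body pair P3 (0.0536), or control pair P1 (0.0648) or P2 (0.213). Man2b1 was lost without cornea pair P2 (0.126), Grn without cornea pair P5 (0.0564), and Creg1 without cornea pair P5 (0.0707) or control pair P2 (0.0640). With no filter on low counts Man2b1 (0.0922), Asah1 (0.346), Ppt1 (0.382), Scarb2 (0.437) and Hexa (0.50) were lost, and DESeq2 called Man2b1, Grn and Creg1 of the 9.

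The 2 members that were higher belong to the V1 sector. Atp6v1a had 297 and 306 scaled CPM in cornea macrophages against 154 and 132 in retinal microglia (log2 fold change 0.97 ± 0.33 SE, edgeR adjusted p = 0.0317). Atp6v1f, a small V1 subunit, had 276 and 290 against 167.4 and 96.3 (log2 fold change 1.07 ± 0.36 SE, edgeR adjusted p = 0.0322). Both were lost without control pair P2, at edgeR adjusted p of 0.160 for Atp6v1a and 0.270 for Atp6v1f, and with scaling by the total alone, at 0.158 and 0.127. Atp6v1f was also lost with the filter on wells (0.0554). Of the 6 V1 genes, 6 had a positive log2 fold change (5 with scaling by the total alone), and of the 10 hydrolases tested 9 had a negative one. That scaling moves the median of all genes to -0.27. Among the members named in every comparison and not called, Lamp1 had 622 and 697 in cornea macrophages against 978 and 843, Lamp2 281 and 449 against 348 and 403, and Cd68 389 and 702 against 579 and 512. Laptm5 had 1417 and 1690 against 2240 and 2252, without overlap (log2 fold change -0.65 ± 0.28 SE, edgeR adjusted p = 0.0878), and passed with single libraries (0.00129) and with scaling by the total alone (0.00882). Psap had 1363 and 1125 against 1609 and 1102, Lipa 124 and 153 against 193 and 120, and Atp6v0d1 178.5 and 132.0 against 90.1 and 72.2. The keratin sums given above move with this comparison, as do the dendritic cell markers, at 449 to 476 in cornea macrophages against 64.4 to 114, and the photoreceptor markers, at 127 to 1779 against 4622 to 8731. Their part was not tested.

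**Figure D4:**
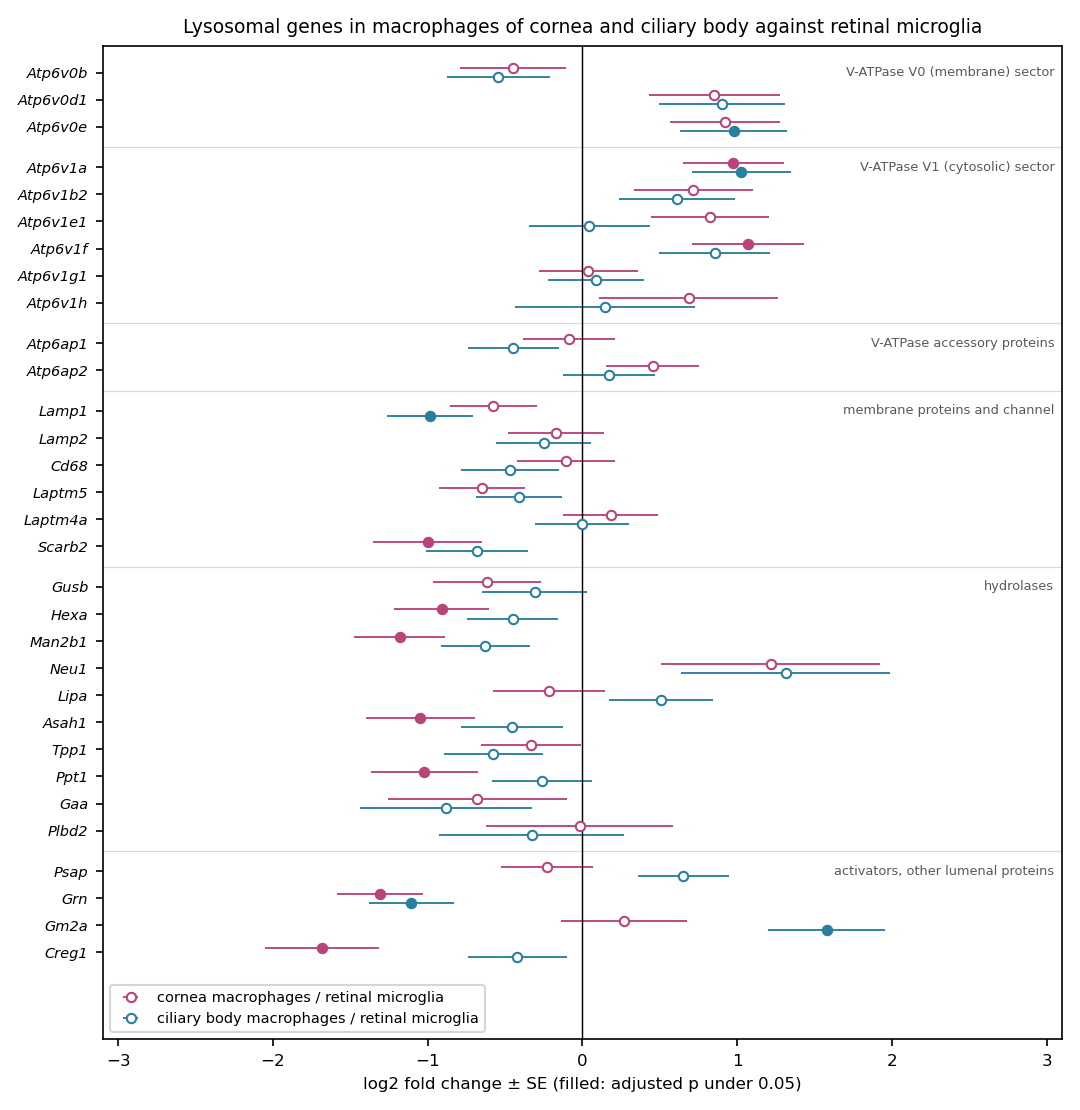
Log2 fold change with its SE (horizontal axis) of the 31 members tested in cornea macrophages (upper symbols) and ciliary body macrophages (lower symbols) over microglia of control retina, grouped by role, with filled symbols for an adjusted p under 0.05. Grn lies below -1 in both, Atp6v1a near 1 in both, and Gm2a is called in ciliary body macrophages at 1.58.

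In ciliary body macrophages, against the same microglia, 3 members were higher and 2 were lower of 31 tested. Of all genes tested 29.2% were called, 16.6% higher and 12.6% lower, and the median log2 fold change was -0.26 for the members and -0.03 for all genes. With scaling by the total alone 1 member was higher and 11 were lower, against 550 higher and 1043 lower of all genes. Gm2a had 478 and 404 scaled CPM in ciliary body macrophages against 219 and 84.3 in retinal microglia (log2 fold change 1.58 ± 0.38 SE, edgeR adjusted p = 0.00493). Atp6v1a had 261 and 354 against 154 and 132 (log2 fold change 1.03 ± 0.32 SE, edgeR adjusted p = 0.0238). Atp6v0e, a V0 subunit, had 216 and 197 against 77.2 and 108 (log2 fold change 0.98 ± 0.35 SE, edgeR adjusted p = 0.0430). The microglial pairs differed from each other for Gm2a more than the ciliary body pairs did. Dendritic cell markers (7 genes) summed to 1095 to 1122 in ciliary body macrophages against 64.4 to 114 in retinal microglia, monocyte markers to 542 to 559 against 38.6 to 48.2, and photoreceptor markers to 13.5 to 828 against 4622 to 8731. Their part was not tested. Of those lower, Grn had 708 and 733 against 1480 and 1415 (log2 fold change -1.11 ± 0.27 SE, edgeR adjusted p = 0.00619), and Lamp1 had 446 and 533 against 978 and 843 (log2 fold change -0.99 ± 0.28 SE, edgeR adjusted p = 0.0143). Neither overlapped. Without control pair P2 all 5 calls were lost, at edgeR adjusted p of 0.132 (Gm2a), 0.172 (Atp6v1a), 0.0947 (Atp6v0e), 0.0540 (Grn) and 0.0722 (Lamp1). Without ciliary body pair P4, Atp6v1a (0.105), Atp6v0e (0.0536), Grn (0.0528) and Lamp1 (0.0622) were lost. Without ciliary body pair P3, Atp6v0e (0.0938), Grn (0.0570) and Lamp1 (0.153) were lost, and without control pair P1, Atp6v0e (0.153) and Lamp1 (0.117). With scaling by the total alone Atp6v1a (0.156) and Atp6v0e (0.214) were lost, with single libraries Atp6v0e (0.0848), and with no filter on low counts Grn (0.141) and Lamp1 (0.311). DESeq2 called Gm2a, Grn and Lamp1 of the 5.

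Psap had 2322 and 2207 scaled CPM in ciliary body macrophages against 1609 and 1102 in retinal microglia, without overlap, and did not pass (log2 fold change 0.65 ± 0.29 SE, edgeR adjusted p = 0.109), but passed with no filter on low counts (0.0156). Laptm5 had 1740 and 1884 against 2240 and 2252, Lamp2 347 and 337 against 348 and 403, and Cd68 415 and 427 against 579 and 512. Lipa had 212 and 241 against 193 and 120, and Atp6v0d1 121.7 and 190.9 against 90.1 and 72.2. The 6 V1 genes again all had a positive log2 fold change, but with scaling by the total alone 3 of the 6 did, the median of all genes then being -0.42.

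Between cornea and ciliary body macrophages 1 member passed the test. Of 31 members tested 0 were higher in cornea and 1 was lower, against 3.55% of all genes called, 2.49% higher and 1.06% lower. Gm2a had 162 and 195 scaled CPM in cornea against 478 and 404 in ciliary body macrophages (log2 fold change -1.31 ± 0.34 SE, edgeR adjusted p = 0.0443). The call was lost without cornea pair P2 (0.0922) or P5 (0.0511) or ciliary body pair P3 (0.121), and with all library genes (0.0633) or scaling by the total alone (0.0682), and with DESeq2 (0.271). The dendritic cell markers, a class in which Gm2a was high, summed to 449 to 476 in cornea against 1095 to 1122 in ciliary body macrophages, and their part was not tested. Creg1 had 97.4 and 58.1 in cornea against 180 and 188 in ciliary body macrophages (log2 fold change -1.26 ± 0.35 SE, edgeR adjusted p = 0.0581). It passed without cornea pair P2 (0.0302), control pair P1 (0.0192) or control pair P2 (0.0492), and with single libraries (0.0284). Psap had 1363 and 1125 in cornea against 2322 and 2207 in ciliary body macrophages, without overlap (log2 fold change -0.88 ± 0.29 SE, edgeR adjusted p = 0.128), and passed with single libraries (0.0101). Atp6v1a, with 297 and 306 against 261 and 354, overlapped.

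Among the 71 other lysosome genes, 46 were tested in the eye table. In cornea macrophages 1 was higher and 10 lower than in retinal microglia, against 17.3 and 15.8% of all genes. In ciliary body macrophages 6 were higher and 9 lower, against 16.6 and 12.6% of all genes. Between cornea and ciliary body 0 were called in either direction with edgeR, 5 having an unadjusted p under 0.05. Lgmn, the asparagine endopeptidase legumain, averaged 407 in cornea and 602 in ciliary body macrophages against 2247 in retinal microglia (log2 fold changes -2.58 ± 0.30 and -1.997 ± 0.286 SE). Acp2 averaged 67.0 in cornea and 65.5 in ciliary body macrophages against 254 in retinal microglia (log2 fold changes -2.06 ± 0.39 and -2.09 ± 0.37 SE). The calls of Lgmn and Acp2 against microglia held under every setting tried. Plbd1, a phospholipase B-like gene and relative of the member Plbd2, averaged 241 in cornea and 548 in ciliary body macrophages against 6.44 in retinal microglia, where 1 transcript was counted.

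Of the 36 members, 8 were too low to test in microglia of the retina table and 5 in the eye table. Atp6v0c, the proteolipid that forms the proton channel, stood at 0 to 14.6 scaled CPM over the retinal pairs and 0 to 12.9 over the eye pairs. It has near-identical copies in the genome, among which the counting may have divided its tags, so its level is uncertain. Atp6v0d2, a V0 subunit known from osteoclasts, had 1 transcript in each table. Mcoln1, the calcium channel of the lysosome, stood at 0 to 62.6 scaled CPM in retina and 5.41 to 36.1 in the eye table, and Tfeb at 0 to 103 and 0 to 31.7. Glb1 (β-galactosidase) was not tested in either table, and Neu1 (sialidase), Plbd2 and Atp6v1h were tested in the eye table only. Where these genes were not tested, a difference was not detectable at this depth.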

How the data were processed

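Per the labels' protocols, CD45+ cells were sorted into 384-well plates and libraries were made by mCEL-Seq2. The aligner was BWA 0.6.2-r126, per the submitters' processing notes. Their build, annotation and counting rule were not given in the sources used here. The authors deposited, for each library, estimated counts of each gene's transcripts in each well, corrected for the number of molecular identifiers and so not whole, and 2 joint tables of estimated counts of the same wells with their own annotation. The annotation columns hold other values (cell type and cluster), given by the authors. Each well was sorted as 1 cell, so doublets were not called. The deposited normalized tables were not used.

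Estimated counts of the genes of the joint tables were summed per class, group and pair, rounded, and tested with edgeR 4.0.16 in R 4.3.3 (quasi-likelihood, filterByExpr, TMM, Benjamini-Hochberg over all genes tested, threshold 0.05). The number of transcripts behind each sum limits its precision. The 36 members and the other lists were chosen with earlier results of these data known. Named with values were every called member, 13 members named in every comparison, and up to 3 called genes of each other list. Members beyond this rule were named after their values were seen. Alternatives were DESeq2 1.42.0, other scalings, no filter, well filters (at least 1000 transcripts and at most 25% mitochondrial), single libraries, each pair left out, and the prefix as a block. The scripts were tested on simulated data. Of simulated 2-fold changes, edgeR called 22.5% for microglia at day 3 against control retina and 5.62% for cornea macrophages against retinal microglia. For day 7 against day 3 it called 28.6% in dendritic cells and 16.5% in the joint class. Of 4-fold changes it called 76.6, 45.7, 88 and 75.3% in the same order. A gene that was not called may therefore still differ. In each simulation 85 to 94 genes were changed by each fold, whatever share was called in the data. That share was 0.17% in dendritic cells, 0.164% in the joint class and 33.1% in cornea macrophages. The simulated percentages may therefore not hold for the data. The result of 1 gene of the other lists is not reported here.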

Additional observations from a re-analysis of the deposited data

Results flagged for a closer look

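Among microglia of retina at day 7, the library of replicate 1 (pair P1) gave 1.98% of its transcripts to the 36 genes, from 26 wells, whereas the other 3 libraries gave 1.73, 1.74 and 1.75%. Its gap to the nearest library was 0.928 of the range of the group, above Dixon's 95% limit for 4 samples. Chance alone marks about 1 in 20 groups in this way, and 11 groups were examined.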

How the results depend on the processing

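The number of members called moved by over 1.5 times in these settings. With DESeq2 it was 1 for microglia at day 3 against control retina, 0 for day 7 against day 3, 3 for cornea macrophages and 3 for ciliary body macrophages against retinal microglia, and 0 for cornea against ciliary body. With no filter on low counts it was 5 for cornea macrophages against retinal microglia and 1 for the joint class. With single libraries as replicates it was 3 for microglia at day 7 against control retina, 9 for ciliary body macrophages against retinal microglia, 3 for cornea against ciliary body and 1 for the joint class. Cornea against ciliary body gave 0 with all library genes but the mitochondrial ones, with all library genes, with scaling by the total alone and with the joint class of the ciliary body in the fit. Scaling by the total alone gave 12 for ciliary body macrophages against retinal microglia. The settings with all library genes, scaling by the total alone, and every alternative of the difference between dendritic cells and microglia were chosen after seeing the data. The cause of these shifts was not tested.

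With 1 pair left out, so that the lone sample was assumed to vary like the other groups, the number of members called was 1 to 6 for microglia at day 3 and 1 to 4 at day 7 against control retina, and 1 to 4 for day 7 against day 3. It was 3 to 8 for cornea macrophages and 0 to 6 for ciliary body macrophages against retinal microglia, and 0 to 2 for cornea against ciliary body. It was 0 to 2 in dendritic cells, 0 to 1 in the joint class and 0 to 1 for the difference between dendritic cells and microglia.

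Over all genes, the number called was 227 to 928 (766 as reported) for microglia at day 3 and 27 to 164 (62) at day 7 against control retina, and 66 to 542 (322) for day 7 against day 3. It was 923 to 1702 (1558) for cornea and 788 to 1593 (1372) for ciliary body macrophages against retinal microglia, 55 to 357 between these, 3 to 94 (4) in dendritic cells, 4 to 114 (3) in the joint class and 2 to 25 (11) for the difference between classes.

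The pairs with the same prefix did not deviate together in microglia, with correlations of -0.08, 0.02 and 0.18 between groups. With 2 pairs the prefix was treated as a shared number alone, and the check was not run in the other classes. With the prefix as a replicate block, members called were 4 and 1 for microglia at day 3 and day 7 against control retina, 4 for day 7 against day 3 (Atp6v1a joining, edgeR adjusted p = 0.0457), 0 in dendritic cells, 1 in the joint class and 0 for the difference. No paired analysis was possible in the eye table because its groups share fewer than 2 prefixes.

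The summed share of the 36 genes moved with the total used. With mitochondrial genes left out of the total of all library genes microglia had 0.714% without laser, 1.33% at day 3 and 1.11% at day 7. It was 0.773 and 0.809% for dendritic cells at days 7 and 3, 0.516 and 0.755% for the joint class at days 7 and 3, and 0.706, 0.739, 0.563 and 0.697% for cornea macrophages, ciliary body macrophages, ciliary body joint class and retinal microglia. With all library genes in the total these were 0.628, 1.16, 0.971, 0.679, 0.711, 0.453, 0.677, 0.631, 0.679, 0.512 and 0.602%, in the same order. As a median over cells it was 0.749 and 0.915% for dendritic cells at days 7 and 3, 0.462 and 1.06% for the joint class at days 7 and 3, 0.956% for ciliary body macrophages and 0.753% for ciliary body joint class. Among the single genes refitted under the alternatives (the called members and selected others), none changed direction, 120 fits lost a call and 21 gained one. Members not refitted singly did change direction with scaling by the total alone, as given for the V1 genes.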
